A study of Mus musculus with 9 samples.

Results

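The comparison described here is between the Zdhhc20 knockout clone (clone E4, 3 libraries) and the parental cells it was derived from (3 libraries), 6 of the 9 libraries of the series, across all autosomal genes with enough counts to test. Both groups are the mouse line PDA530 Met, cells of a ductal adenocarcinoma of the pancreas that had spread to the liver in 1 KPC male, of mixed 129/SvJae/C57Bl/6 background, kept untreated in DMEM with 10% FBS. The KPC model carries engineered alleles that drive tumours in the pancreas, mutant Trp53 among them, and all groups share these alleles. The knockout clone was made with CRISPR/Cas9 and grown from a single cell, and the parental cells were neither edited nor cloned. Its 3 libraries therefore repeat 1 clone, and editing of Zdhhc20, single-cell cloning and chance differences between cells cannot be told apart in this comparison. The third group of the series, control clone C5, received the same guide RNAs without being edited, and its levels are given beside some results. The labels call the 3 libraries of a group biological replicates without naming separate cultures, so the p-values measure the spread between these libraries, which may be technical. Of 54838 gene identifiers in the table, 12362 autosomal genes passed the filter on low counts and were tested; another 10196 autosomal genes had a count in these libraries but were not tested.

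Zdhhc20 encodes a palmitoyltransferase of the DHHC family, membrane enzymes that attach the fatty acid palmitate to cysteines of other proteins and so change how these proteins sit in membranes. The epidermal growth factor receptor is a known substrate. Ductal adenocarcinoma cells keep an epithelial program of keratins, junctions and mucins to a varying degree, and they can lose parts of it while taking up mesenchymal and contractile genes. Gene groups that follow such states, together with signalling pathways, metabolism, stress responses and surface protein families, were collected in 40 lists.

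The labelled target was lower in the knockout clone. Zdhhc20 (chr14:57832703-57890276, build GRCm38) had 37.8, 34.2 and 42.9 CPM (counts scaled to the same library size) in the knockout libraries and 76.0002, 81.6 and 91.5 CPM in the parental libraries. The groups did not overlap, as in 62.4% of all tested genes, and the log2 fold change, knockout minus parental, was -1.12 (SE 0.09, adjusted p = 6.2e-06; edgeR). A total of 2104 counts remained in the knockout libraries, and counts over the whole gene do not show whether the transcript is intact. The 6 libraries held between 16525869 and 20593427 counts, and libraries of the same group correlated at 0.9882 to 0.9922 (log2 CPM), against 0.9289 to 0.9473 between groups. The summed level of 7 ductal markers was 4350 to 4490 CPM in the knockout clone and 6760 to 8240 CPM in the parental cells. Epcam, 1 of these 7, was nearly absent from both, at a mean of 0.616 and 0.1997 CPM. Markers of acinar, endocrine, fibroblast, leukocyte, endothelial, liver and red blood cells summed to at most 4.03 CPM for each cell type in any library. At 0 in all 6 libraries were 4 of 5 acinar, 5 of 5 endocrine, 4 of 7 fibroblast, 4 of 6 leukocyte, 2 of 4 endothelial, 1 of 4 liver and 1 of 2 red cell markers. Sums were lower in the knockout clone for fibroblast markers (0.826 to 1.69 against 3.15 to 4.03 CPM), liver markers (0.0984 to 0.177 against 1.13 to 3.03 CPM), acinar markers (1.24 to 1.33 against 1.6 to 2.97 CPM) and leukocyte markers (0.843 to 1.18 against 1.26 to 2.02 CPM, mostly Cd68). The fibroblast difference was that of Pdgfra, since Col1a1 overlapped between the groups and Col1a2, Col3a1, Dcn and Lum were at 0 in all libraries. The liver difference was mostly that of Ttr, with 0 counts in each knockout library and 21, 11 and 40 in the parental libraries. The part of these markers in the matrix and drug-metabolism results was not tested.

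Between the clone and the parental cells, 6615 autosomal genes (53.5%) were called at an adjusted p under 0.05 in edgeR's quasi-likelihood test, 3201 higher (25.9%) and 3414 lower (27.6%) in cells of the clone. The large changes were mostly decreases. Genes that were called and moved by 1 or more on the log2 scale numbered 1384 (11.2%), 336 of them higher (2.72%) and 1048 lower (8.48%). The median over all tested genes was 0.00 on the log2 scale. The number called fell to 3998 when the control clone entered the same fit, and to 3517 when a fold change of more than 1.2 was required. When genes were limited to a mean of at least 5 CPM in 1 of the groups, the large changes numbered 699, with 163 higher and 536 lower.

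**Figure D1:**
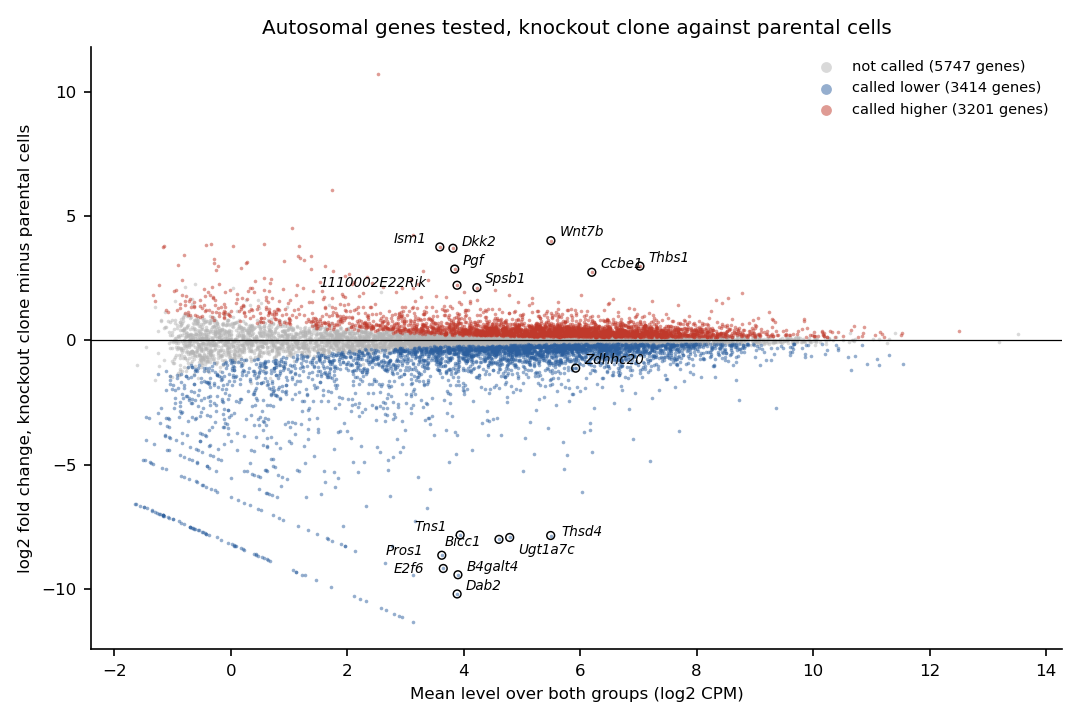
Each point is 1 of the autosomal genes tested; the x axis gives the mean level of both groups in log2 CPM and the y axis the log2 fold change, knockout clone minus parental cells. Red and blue points were called higher (3201) and lower (3414), gray points were not called, and the circled genes are Zdhhc20 and the 8 highest and 8 lowest genes named by the rule; the lines of points at the lower left are genes with 0 or few counts in the knockout clone.

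Wnt7b, a Wnt ligand (chr15:85535437-85582473), had 85.1, 85.03 and 85.4 CPM in the knockout clone and 6.803, 5.16 and 3.56 CPM in the parental cells. Its log2 fold change was 4.02 (SE 0.14, adjusted p = 3.29e-08), the largest among genes with at least 20 CPM in the higher group and no overlap between libraries. Dkk2, a secreted Wnt antagonist (chr3:132085292-132180304), stood at 30.7, 21.4 and 26.5 against 2.62, 1.96 and 1.31 CPM (3.71, SE 0.21). A ligand and an antagonist of the same pathway were thus both higher in all 3 knockout libraries. Thbs1, which encodes the matrix glycoprotein thrombospondin-1 (chr2:118111876-118127133), had 235, 229 and 231 CPM in the clone and 40.4, 27.3 and 18.9 CPM in the parental cells, a log2 fold change of 2.99 (SE 0.20). Pgf, a ligand of the VEGF receptor Flt1, had 26.7, 23.8 and 25.6 and 4.47, 3.97 and 1.78 CPM (2.87, SE 0.21). Ism1, which encodes the secreted protein isthmin 1, had 21.9, 24.6 and 20.99 against 2.24, 1.84 and 0.772 CPM (3.76, SE 0.22). Genes were chosen for groups that do not overlap, and parental replicate 3 was the lowest library in each of these 5. The remaining genes of the 8 were Ccbe1, a secreted factor of lymphatic growth (2.74), Spsb1, a substrate receptor of a ubiquitin ligase (2.13), and the uncharacterised 1110002E22Rik (2.22). Control clone levels lay near the parental ones for Wnt7b (1.61, 6.95 and 2.31 CPM) and Dkk2 (0.959, 2.56 and 1.83 CPM). For Thbs1 the control libraries were spread over 17.3, 168 and 22.1 CPM and for Pgf over 7.59, 27.9 and 11.95 CPM, control replicate 2 being the highest in both. Against the control clone, Thbs1 was not called with all 9 libraries (edgeR, adjusted p = 0.082) but was without control replicate 2, where its log2 fold change went from 1.74 to 3.55. Pgf likewise was not called with all 9 (adjusted p = 0.222) and was called without that library, going from 0.68 to 1.37. Without control replicate 1 or 3 neither was called. Wnt7b and Thbs1 share exonic sequence with the annotated transcripts AU022754 and Gm29233, and their counts cannot be separated from these with certainty.

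The lowest genes had next to no transcript left. B4galt4, a galactosyltransferase (chr16:38742264-38769049), had 0.0492, 0.0562 and 0 CPM in the knockout libraries, a total of 2 counts, and 28.96, 29.9 and 30.7 CPM in the parental libraries. The parental level was 820 times as high, with a counting interval of 227 to 6777. E2f6, a repressive member of the E2F transcription factors (chr12:16810963-16839742), was also reduced to 2 counts and had 24.7, 26.2 and 24.3 CPM in the parental cells, a ratio of 689 (190 to 5697). Dab2, an endocytic adaptor protein (chr15:6299788-6440712), had 1 count in the clone and 28.3, 31.9 and 28.5 CPM in the parental cells, a ratio of 1624 (291 to 64177). Pros1, which encodes the anticoagulant protein S, kept 3 counts against 23.9, 25.4 and 24.5 CPM, a ratio of 451 (154 to 2188). The other members of the 8 lowest were Bicc1, an RNA-binding protein, Ugt1a7c, a glucuronosyltransferase, Thsd4, a matrix protein, and Tns1, a focal adhesion protein, with log2 fold changes from -8.01 (Bicc1) to -7.83 (Tns1). Thsd4 fell from 93.2, 86.4 and 89.7 CPM to 0.492, 0.112 and 0.531 CPM. Ugt1a7c shares exons with its neighbours in the Ugt1a cluster, so its fold change is uncertain. In the control clone, E2f6 stood at 26.1, 31.9 and 24.1 CPM, B4galt4 at 54.4, 53.02 and 54.6 CPM and Dab2 at 34.3, 36.3 and 96.2 CPM. B4galt4 and Dab2 were above all parental libraries there, and E2f6 overlapped them. Bicc1 (7.37, 3.21 and 7.18 CPM), Ugt1a7c (9.16, 3.804 and 5.61 CPM) and Pros1 (13.5, 9.21 and 16.1 CPM) were below all parental libraries in the control clone as well.

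**Figure D2:**
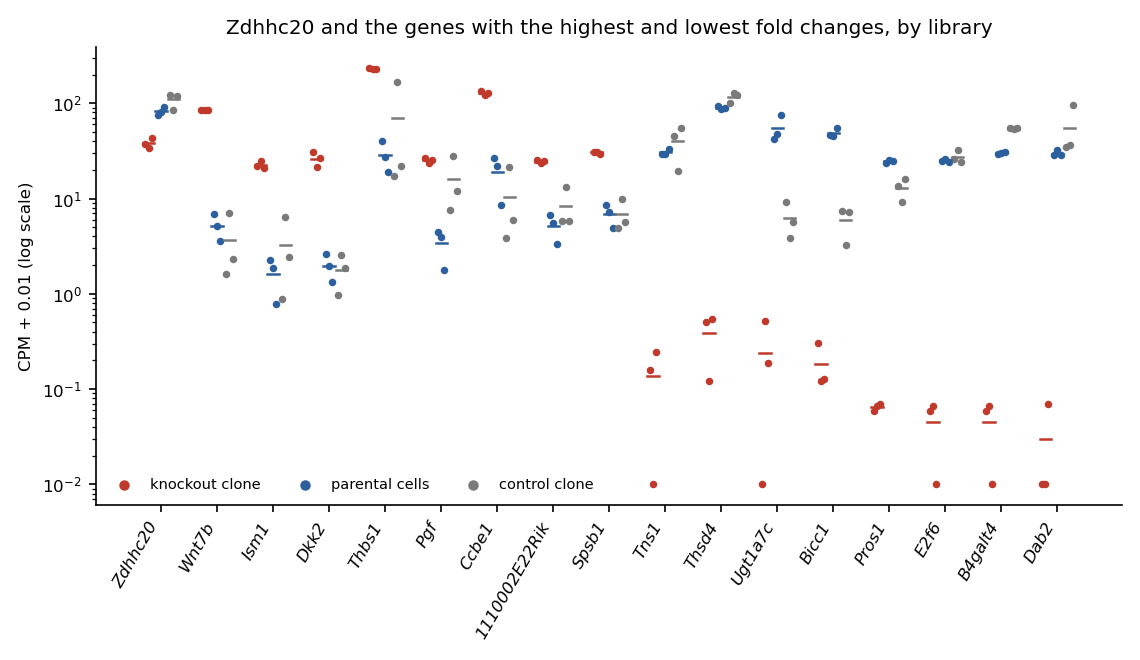
CPM plus 0.01 on a log scale for Zdhhc20 and the 8 highest and 8 lowest genes; each point is 1 library of the knockout clone (red), parental cells (blue) or control clone (gray), and the bar is the mean of 3. The 8 highest and 8 lowest were chosen for knockout and parental libraries that do not overlap, and for the 8 lowest the knockout libraries lie under 1 CPM.

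Near-complete absence was not limited to these 8. After the values were seen, genes with at most 3 counts over the knockout libraries and a parental mean of at least 5 CPM were counted, and 27 of 9710 genes with such a parental mean met this, 11 of them with 0 counts. They lie on 15 autosomes, 5 of them on chromosomes 9 and 16. They include Arsb, a lysosomal sulfatase (at least 321-fold lower), Lpl, the lipoprotein lipase (at least 271-fold), Gnao1, a G protein alpha subunit (at least 259-fold), Panx1, a channel protein (at least 171-fold), and Bmp2, a BMP ligand (at least 121-fold), each bound taken against a floor of 3 counts over the group. Of the 27, 15 had a mean of at least 5 CPM in the control clone, and 8 had a mean under 1 CPM there. Car12, a carbonic anhydrase, is of the second kind, with 6.71, 8.06 and 8.49 CPM in the parental cells, 1 count in the knockout clone and 0.174, 0.178 and 0.2097 CPM in the control clone. The reverse pattern was found in 1 gene identifier. It is 1 of 2 that share exons and are annotated as Nnt, the mitochondrial transhydrogenase of which C57BL/6J mice carry a deleted allele. This identifier had no count in the parental libraries and 6.69, 8.71 and 19.3 CPM in the knockout libraries, at least 203-fold higher. In the control libraries it had 0, 0 and 5.295 CPM. Reads may be divided between the 2 identifiers, and the other is not given here. The fold change of the gene Nnt is therefore uncertain, and its absence from the parental cells is not shown.

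The start regions of E2f6 and B4galt4 are shown because both were nearly silent in the knockout clone and transcribed in the parental cells and the control clone. The 250 bases before the annotated start are given from RefSeq (GRCm38.p6), with CG dinucleotides, the sites at which mammalian DNA is methylated, in capitals. The E2f6 window is chr12:16810715-16810964, plus strand, with 24 CG. The B4galt4 window is chr16:38742009-38742258, plus strand, with 19 CG. The window of Panx1, a gene with the same pattern, held 17 CG and is not printed.
E2f6: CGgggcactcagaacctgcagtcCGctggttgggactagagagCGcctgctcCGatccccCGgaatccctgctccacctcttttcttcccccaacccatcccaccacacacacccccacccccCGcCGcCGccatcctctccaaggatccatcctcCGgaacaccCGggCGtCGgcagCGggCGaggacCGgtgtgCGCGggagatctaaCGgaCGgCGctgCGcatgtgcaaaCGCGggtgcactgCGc
B4galt4: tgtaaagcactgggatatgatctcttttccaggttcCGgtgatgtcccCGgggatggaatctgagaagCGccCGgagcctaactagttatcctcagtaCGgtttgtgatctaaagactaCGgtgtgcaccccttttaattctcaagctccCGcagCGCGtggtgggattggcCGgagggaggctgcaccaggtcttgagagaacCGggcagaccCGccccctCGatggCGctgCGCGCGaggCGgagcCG
Windows were matched by symbol for 22 of the 27 genes, and their median number of CG was 24, ranging from 4 to 53. Over the 9071 tested genes with a window it was 18, and it was also 18 over the 7549 other genes with a parental mean of at least 5 CPM. DNA methylation was not measured.

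Fold changes differed by chromosome. On chromosome 9, 464 of 723 tested genes (64.2%) were lower and 5.81% higher, with a median log2 fold change of -0.51. On chromosome 16, 54.6% were lower (median -0.29), while on chromosomes 14 and 17 46.7% and 48.6% were higher (medians 0.21 and 0.22). The medians of the other 15 autosomes lay between -0.14 and 0.12. For control clone minus parental cells, the medians of chromosomes 9, 14, 16 and 17 were between -0.03 and 0.05, while chromosomes 12 and 13 had medians of 0.28 and -0.20. Copy number was not analysed here, and the part of chromosome position in the results below was not tested. Counts over the other 15 autosomes, a subset chosen after these values were seen, are given for some lists. On these 15 autosomes 25.7% of 10157 genes were higher and 25.6% lower.

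**Figure D3:**
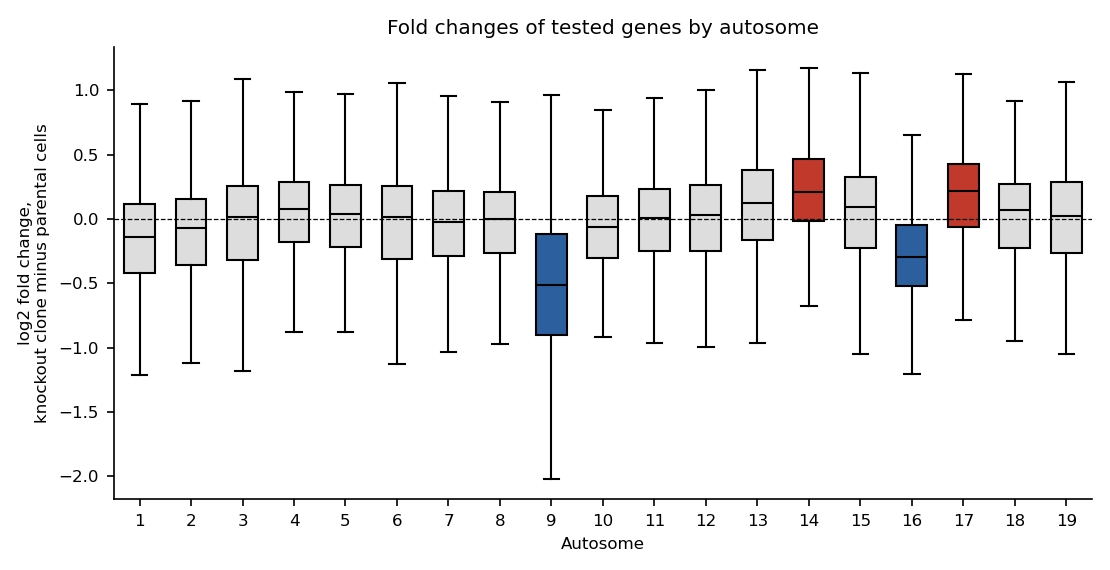
Log2 fold changes, knockout clone minus parental cells, of the tested genes on each autosome; boxes give the median and quartiles, whiskers reach 1.5 times the box height, and points outside are not drawn. Chromosomes 9 and 16 (blue) are shifted down, with medians of -0.51 and -0.29, and chromosomes 14 and 17 (red) up, with medians of 0.21 and 0.22.

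The lists were read against the shares over all tested genes, 25.9% higher and 27.6% lower. Of the 40 lists, 39 had tested members; all 39 Hox genes were below the filter. The share of lower members was largest among surface proteins and mucins (73.3% of 15), glutathione, aldehyde and drug-metabolising enzymes (73.0% of 63), S100 and annexin proteins (68.2% of 22), keratins (66.7% of 9), tetraspanins and caveolins (65.4% of 26) and epithelial transcription and splicing factors (65.0% of 20). The share of higher members was largest in the contractile actin cytoskeleton (63.6% of 22), cell cycle inhibitors and p53 targets (59.5% of 37), the Hippo pathway and YAP targets (54.3% of 35), ERK output genes (52.9% of 34) and cholesterol synthesis (50.0% of 32). With the control clone in the fit, 13.1% of all tested genes were higher and 18.3% lower, and at the fold of 1.2 these were 11.5% and 16.9%, so that list counts under those settings are read against these shares. With 1 library left out, 20.7% to 24.3% of all genes were higher and 24.2% to 26.4% lower. With the control clone in the fit, the TGF-beta list had 10 of 39 members higher, the fatty acid list 5 of 49 higher and 15 lower, the growth factor list 3 of 30 higher and the semaphorin list 9 of 29 lower; the values below are from the 6 libraries.

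**Figure D4:**
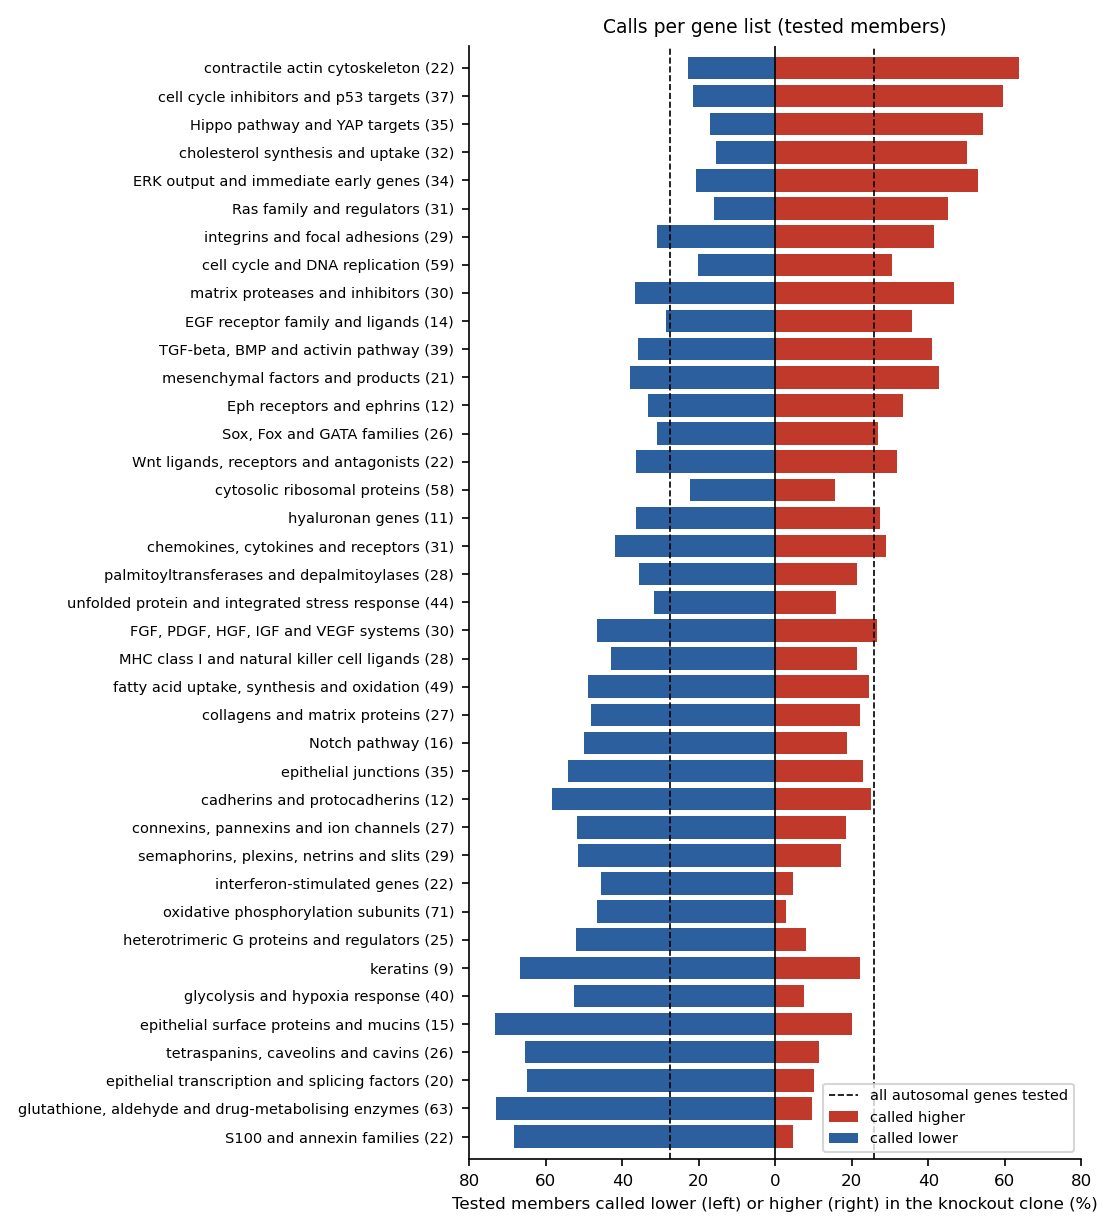
Share of the tested members of each of 39 gene lists that was called lower (blue, to the left) or higher (red, to the right) in the knockout clone, in percent; the number of tested members is in parentheses, and the dashed lines mark the shares over all autosomal genes tested (27.6% and 25.9%). Metabolic, epithelial and surface protein lists reach far beyond the line on the left, and actin, p53, YAP, cholesterol and ERK lists beyond that on the right.

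Epithelial genes were reduced in part. Of 9 keratins tested, 6 were lower and 2 higher, with a median log2 fold change of -0.93. Krt19, a keratin of ductal cells, had 156, 187 and 177 CPM in the clone and 921, 995 and 1535 CPM in the parental cells, a log2 fold change of -2.73 (SE 0.17). All parental libraries lay far above the knockout libraries, and replicate 3 stood above the other parental libraries. Krt8, which pairs with Krt18 in simple epithelia, fell less (1278, 1401 and 1327 against 2323, 2366 and 2946 CPM, -0.93), Krt18 fell by 0.18, and Krt7 was not called (0.096, 425 and 398 CPM). Krt13 had no count left, from a parental mean of 0.678 CPM. Krt14, a basal keratin, fell from low levels (-3.23), while Krt23 rose (0.704). Among 35 junction genes, 19 were lower and 8 higher (median -0.45). On the 15 autosomes without a marked shift these were 12 lower and 7 higher of 27 (median -0.25), 44.4% of them lower. Nectin1, an adhesion receptor on chromosome 9, went from 18.9, 17.7 and 16.7 to 0.0492, 0.225 and 0.05897 CPM. The desmosomal cadherin Dsc2 fell to 1.23, 0.955 and 1.297 CPM from 26.9, 25.5 and 31.4 (-4.58, SE 0.15), and the desmosomal linker Dsp fell from 573, 559 and 701 to 203, 227 and 180.0 CPM (-1.59, SE 0.10). Cdh1, E-cadherin, was lower by less than these (-0.64, 775 against 1211 CPM), and the tight junction scaffold Tjp1 was not called (0.05). The claudins that rose were Cldn6 (1.43, 298 against 110.4 CPM) and, from 0.144 CPM, Cldn4 (3.28).

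The epithelial regulators showed 13 of 20 members lower and 2 higher (median -0.46). Grhl3, a grainyhead factor of epithelial barriers, had no count in the clone and 4.36 CPM in the parental mean. Elf3, an ETS factor of epithelia, had 13.04, 12.3 and 12.6 CPM in the clone and 43.7, 43.9 and 63.01 CPM in the parental cells (-1.98, SE 0.14). Klf4, a factor of epithelial differentiation, fell from 142, 140.3 and 207 to 40.8, 55.6 and 40.4 CPM (-1.84, SE 0.16), and the RNA-binding protein Rbm47 (-1.39). Hnf4a (-0.73), Pdx1 (-0.95) and Gata6 (-0.79), factors of endodermal and pancreatic identity, were lower too. The exception among the forkhead members was Foxa1, which rose from 10.9, 11.2 and 8.49 to 23.3, 19.6 and 24.4 CPM (1.13, SE 0.12), whereas Foxa2 (-0.39) and Foxa3 (-1.01) fell. Of 15 surface proteins and mucins, 11 were lower and 3 higher (median -0.92). Muc5ac, the gastric gel-forming mucin, had 0.0984, 0.0562 and 0.118 CPM against 9.82, 8.41 and 11.5 CPM, and 139, 111 and 43.4 CPM in the control clone, so that all 3 groups differed. The serine protease Tmprss2 fell from 27.8, 33.01 and 50.4 to 4.58, 5.79 and 5.19 CPM (-2.84), while the serine protease Prss22 rose (1.41, SE 0.15).

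**Figure D5:**
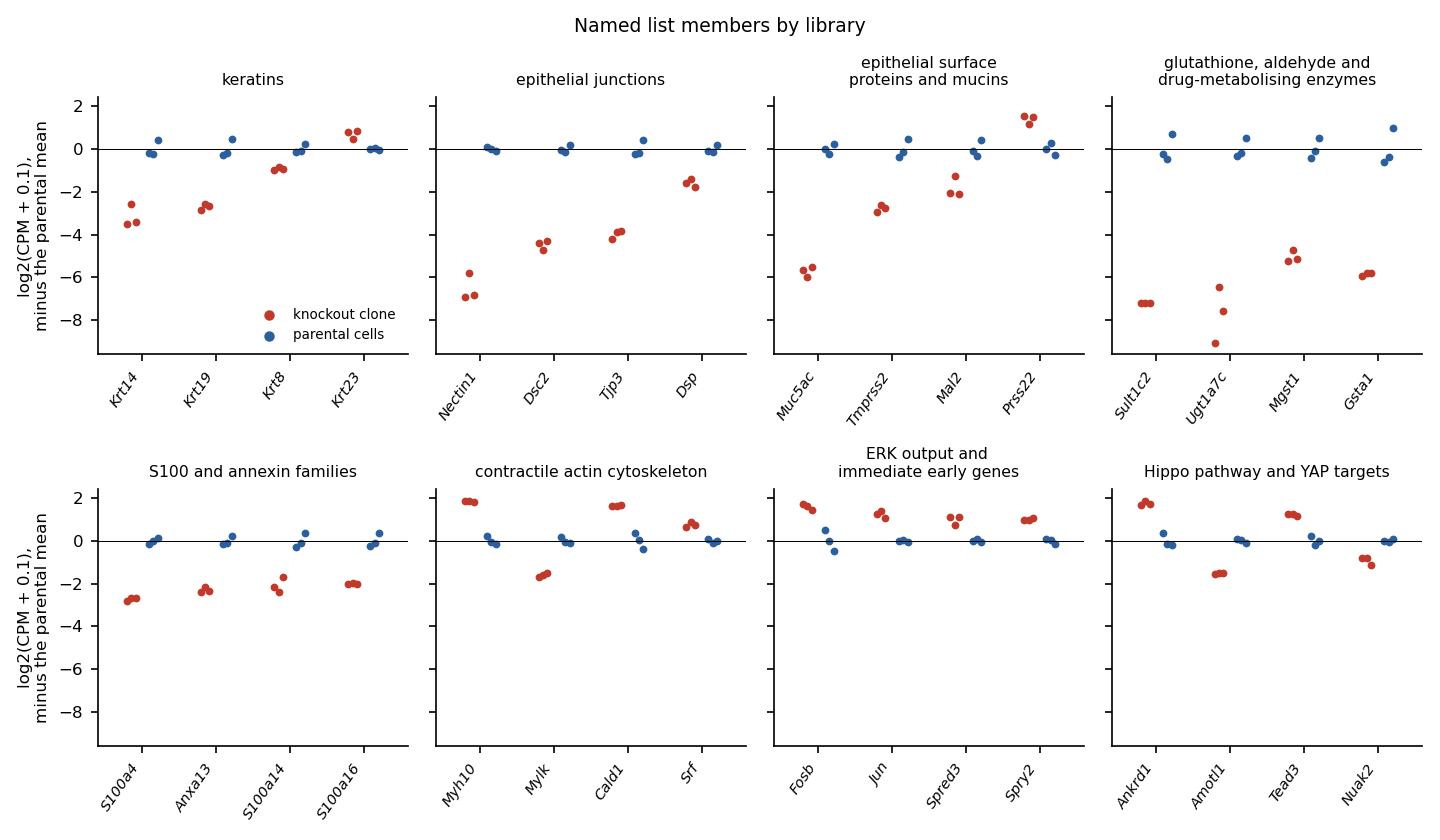
Level of the named members of 8 gene lists in each knockout (red) and parental (blue) library, as log2(CPM + 0.1) minus the parental mean of the gene. The members shown were chosen as called with the largest changes, so their separation follows from the choice. Krt19 is lower (-2.73), while Myh10 and Ankrd1 are higher (1.84 and 1.72).

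Mesenchymal genes did not move in 1 direction. Of 21 tested, 9 were higher and 8 lower (median 0.13). Fn1, fibronectin (0.86, 813 against 448 CPM), Cald1, the actin-binding caldesmon (1.595, SE 0.14), and the repressors Snai2 (0.77) and Zeb2 (0.801) rose. S100a4, named for fibroblasts, fell from 119.7, 129 and 146 to 18.9, 20.6 and 20.3 CPM (-2.73), Nt5e, the ectonucleotidase CD73, from 83.3, 94.5 and 117 to 5.76, 5.28 and 6.07 CPM (-4.104), and Vim, vimentin, (-0.6004). Twist1, a mesenchymal transcription factor, had no count in the clone and 2.27 CPM in the parental mean. Zeb1 (0.01) and Cdh2 (0.13) were not called.

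Matrix genes moved in both directions within families. Among 27 collagens and matrix proteins 13 were lower and 6 higher (median -0.13), against 27.6% and 25.9% of all genes. Both tested collagen VI chains fell, Col6a2 from 60.9, 63.6 and 75.2 to 8.76, 10.3 and 9.44 CPM (-2.81, SE 0.10) and Col6a1 (-2.16). Col8a1 rose from 4.13, 3.56 and 2.08 to 16.4, 14.2 and 22.7 CPM (2.43, SE 0.23), and Col7a1, the anchoring fibril collagen, rose by 1.84. Of 30 matrix proteases and inhibitors, 14 were higher and 11 lower, which leaves 5 uncalled. The stromelysin Mmp10 had 7.19, 4.66 and 7.84 CPM in the knockout clone and 0.0972, 0.119 and 0.0594 CPM in the parental cells, a log2 fold change of 6.05 (SE 0.39). The urokinase gene Plau (1.54), the cathepsin Ctsl (1.16, 832 against 373 CPM) and the membrane-bound Mmp14 (0.82) rose as well. Mmp28 (-4.504) and Mmp15 (-3.67) fell to under 1 CPM. Has2, a hyaluronan synthase, rose from 1.21, 0.8296 and 0.475 to 19.8, 12.9 and 16.9 CPM (4.26, SE 0.26), and Cemip, which takes part in hyaluronan breakdown, fell from 10.98, 11.9 and 17.9 to 0.886, 0.843 and 0.826 CPM (-3.98, SE 0.25). The other hyaluronan genes moved less, with 3 higher and 4 lower of 11 in all. Has2 overlaps the antisense transcript Has2os, which these counts may not separate.

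Of 29 integrins and focal adhesion genes, 12 were higher and 9 lower (median 0.13). Itga2, a collagen-binding integrin subunit, rose from 199, 188 and 157 to 549.8, 469.9 and 520.4 CPM (1.499, SE 0.09), and Zyx, zyxin, rose by 1.26. The tensins Tns1 and Tns2 (-2.32) and the subunit Itgb3 (43.3, 47.3 and 57.6 to 14.1, 16.2 and 15.3 CPM, -1.701) fell. Of 12 cadherins and protocadherins 7 were lower, 4 of them from under 3 CPM in the parental cells. Among 12 Eph receptors and ephrins 4 were lower and 4 higher, led by Ephb6 (-1.63) and Efna3 (1.26); with the control clone in the fit 0 were higher and 4 lower. Of 29 semaphorins, plexins, netrins and slits 15 were lower, such as Sema4g (19.9, 20.3 and 29.3 to 3.79, 2.53 and 2.65 CPM, -2.93), and 5 higher, such as Sema3a (20.1, 20.9 and 15.6 to 55.1, 41.1 and 57.03 CPM, 1.44).

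The contractile actin cytoskeleton was the list with the largest share of higher members, 14 of 22, with 5 lower (median 0.37); the 14 became 9 when the control clone entered the fit (all genes 13.1%) and when a fold above 1.2 was required (11.5%). Myh10, a nonmuscle myosin heavy chain, had 103, 101 and 100.1 CPM in the knockout clone and 32.6, 26.8 and 25.2 CPM in the parental cells (1.84, SE 0.09). Cald1 had 225, 223 and 230.4 against 92.96, 75.6 and 55.3 CPM. The abundant Actb (0.21), Actg1 (0.33) and Myh9 (0.30004) rose by little. Srf, the serum response factor that drives many of these genes with its cofactors Mrtfa and Mrtfb, rose from 41.8, 37.4 and 39.7 to 62.9, 73.5 and 66.2 CPM (0.77, SE 0.07). Mrtfa rose by 0.45 and Mrtfb fell by 0.34. Against this, Mylk, the myosin light chain kinase, fell from 24.98, 21.9 and 20.5 to 6.89, 7.36 and 7.78 CPM (-1.62), with exons that overlap the predicted gene Gm21691. SRF binds the CArG box, and the 250 bases before the Srf start hold 2 of them, 82 and 62 bases before it (RefSeq, GRCm38.p6, chr17:46556163-46556412, minus strand, boxes in capitals).
Srf: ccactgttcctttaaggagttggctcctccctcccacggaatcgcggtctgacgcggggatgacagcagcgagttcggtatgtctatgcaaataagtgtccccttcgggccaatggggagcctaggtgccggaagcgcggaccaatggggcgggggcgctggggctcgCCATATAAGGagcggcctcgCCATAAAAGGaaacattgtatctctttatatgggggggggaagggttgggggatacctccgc
Of 20 tested list members with a window, 5 had a CArG box on either strand (25.0%: Acta1, Actg1, Cnn2, Srf and Vcl), against 117 of 9071 tested genes (1.29%). The box was also found in 8.33% of 24 windows of the ERK list, 7.84% of 51 of the mostly lower drug-metabolising list and 0 of 27 of the Hippo list. The letters TGANTCA, searched on both strands, were as frequent in the actin list (25.0%, against 5.81% of all). The third pattern searched, TGACNNNGC, was in 15.7% of the windows of the drug-metabolising list and 5.0% of the actin list, against 13.9% of all. A match describes the letters in the window and not binding. The list holds many genes that SRF drives, Srf among them, so its CArG share is not independent of how the list was made. Of the 5 genes with a CArG box 4 rose, against 14 of all 22 members, and Acta1 was not called (1.42, 1.86 against 0.648 CPM). The part of SRF in these changes was not tested.

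Hippo pathway genes and YAP targets had 19 of 35 members higher and 6 lower (median 0.25). YAP is a coactivator that works with TEAD factors and is held back by the Lats kinases. The target Ankrd1 had 546, 606 and 549.9 CPM in the clone and 218, 152 and 146 CPM in the parental cells (1.72, SE 0.13), and Ccn2 rose by 0.797, but Ccn1 was not called (0.22, 560.1 against 481 CPM). Tead3 rose from 11.6, 8.47 and 9.74 to 23.5, 23.9 and 21.9 CPM (1.21). Yap1 itself, on chromosome 9, fell (-0.68, 133 against 213 CPM), and the inhibitor Amotl1, also on chromosome 9, fell from 72.6, 71.1 and 63.1 to 23.7, 23.9 and 24.4 CPM (-1.52). Lats2, both kinase and target, rose by 0.77. The 19 higher members were 12 with the control clone in the fit (all genes 13.1%) and 8 at the fold of 1.2 (11.5%).

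ERK output and immediate early genes had 18 of 34 members higher and 7 lower (median 0.39). Fosb, an AP-1 subunit, had 49.1, 46.1 and 41.1 against 21.2, 14.6 and 10.6 CPM (1.54, SE 0.19), and Jun 77.8, 87.6 and 68.6 against 33.1, 34.4 and 31.5 CPM (1.24, SE 0.09). Fosl1 (0.99), Fosl2 (0.83), Myc (0.599) and the feedback regulators Spry2 (1.004), Spred3 (1.02), Dusp4 (0.77) and Dusp5 (0.58) also rose. Within the AP-1 family the direction differed, since Fos (-0.81) and Junb (-0.59) fell. The immediate early genes Egr1 (-0.74) and Egr2 (-1.41) fell as well. Dusp6, a common readout of ERK activity, was not called (-0.01, 160.5 against 162 CPM). Of 31 Ras family genes and regulators 14 were higher and 5 lower (median 0.18), among them Rasgrp3, a Ras exchange factor (95.3, 88.6 and 87.6 to 191, 159 and 177 CPM, 0.96), and in the other direction Rasgrf2 (-2.07). The 14 were 7 of 31 with the control clone in the fit (all genes 13.1%) and 6 at the fold of 1.2 (11.5%).

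The EGF receptor, named above as a substrate of ZDHHC20, showed no called change in transcript. Egfr was not called, at 19.9 against 21.9 CPM (-0.14). The ligands Nrg1 (14.4, 13.04 and 9.74 to 30.03, 28.3 and 28.4 CPM, 1.21), Tgfa (0.76) and Areg (0.55) rose, and so did the receptor inhibitor Errfi1 (81.01, 64.1 and 66.04 to 176, 154 and 184 CPM, 1.28, SE 0.10). Erbb3 fell (-1.08), as did Erbb2 (-0.24). In all, 5 of 14 members were higher and 4 lower. Among 30 genes of the FGF, PDGF, HGF, IGF and VEGF systems, 14 were lower and 8 higher. The ligands Fgf2 (9.82, 12.9 and 15.1 to 0.295, 0.112 and 0.5897 CPM, -5.23) and Fgf1 (67.9, 65.95 and 106 to 4.97, 9.89 and 5.897 CPM, -3.54) fell, as did the VEGF receptor Flt1 (44.4, 40.1 and 43.5 to 3.89, 6.13 and 4.5998 CPM, -3.14, SE 0.13). Its ligand Pgf, as given above, rose. Fgf2 overlaps Nudt6 on the opposite strand, so its counts may include reads of that gene.

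Wnt genes were as often higher as lower, 7 and 8 of 22. Besides Wnt7b and Dkk2, the ligand Wnt7a (1.19, 96.5 against 42.1 CPM), the target Axin2 (1.99, 4.73 against 1.18 CPM) and the factor Tcf7 (1.35) rose. Several receptors fell, with Lgr4 going from 76.1, 80.3 and 110.3 to 21.8, 27.2 and 22.2 CPM (-1.904, SE 0.14), Fzd1 (-1.37), Fzd7 (-0.98) and Fzd5 (-0.601), though Fzd2 rose by 0.47. The TGF-beta, BMP and activin list had 16 of 39 members higher and 14 lower (median 0.04). Inhba, the activin A subunit, rose from 30.4, 25.2 and 18.7 to 75.9, 70.2 and 73.01 CPM (1.55, SE 0.13), as did the antagonist Fstl3 (1.27) and the ligands Bmp6 (3.88, 2.801 against 0.1799 CPM) and Bmp4 (0.88). Bmp2 had 0 counts in the clone and 6.71, 6.46 and 6.65 CPM in the parental cells. The BMP targets Id1 (105, 110.4 and 153 to 36.5, 53.2 and 38.3 CPM, -1.52), Id2 (-1.41) and Id3 (-0.71) and the inhibitory Smad6 (-2.39) fell together, and Smad3, on chromosome 9 like Smad6, fell by 1.18. In the Notch list 8 of 16 were lower and 3 higher; the target Hey1 fell by 1.55 and the E3 ligase gene Dtx4 rose from 31.6, 32.2 and 31.2 to 66.6, 58.5 and 74.2 CPM (1.07).

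Enzymes of glutathione, aldehyde and drug metabolism formed the largest block of lower genes, 46 of 63 with 6 higher and a median of -0.81. On the 15 other autosomes 36 of 48 were lower (75.0%). Gsta1 and Gsta4, glutathione transferases on chromosome 9, fell from 73.7, 88.2 and 226 to 1.77, 1.97 and 1.95 CPM (-6.09) and from 285 to 9.83 CPM in the mean (-4.86). The parental libraries were uneven in Gsta1, replicate 3 being the highest, and all of them were far above every knockout library. Sult1c2, a sulfotransferase, had no count in the clone and 12.1, 10.5 and 23.4 CPM in the parental cells, at least 277-fold lower. Aldh3a1 (-3.796, 3.36 against 46.8 CPM), Aldh1a1 (-1.903, 28.4 against 106 CPM), Cyp2s1 (-3.32, 13.2 against 131 CPM), Cyp1b1 (-2.14) and the epoxide hydrolase Ephx1 (-3.22) fell too. Nfe2l2, the transcription factor NRF2 that drives many of these enzymes, fell (-1.15, 130.4 against 289 CPM), as did Keap1, its inhibitor on chromosome 9 (-1.11), and the glutathione synthesis genes Gclc (-1.26), Gss (-1.12) and Gclm (-0.19). The NRF2 targets Txnrd1 (-0.13), Prdx1 (-0.08) and Hmox1 (0.15) were not called, and Nqo1 fell from 2.27 to 0.273 CPM (-3.01). Members that rose included Abcb1b, a drug efflux pump (1.06, 170.1 against 81.3 CPM), and Gsto2 (1.47). Glutathione transferases of 1 class are near copies, and Ugt1a6a shares exons with Ugt1a7c, so reads may be divided between them.

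The medians of the energy metabolism lists were shifted by smaller steps. Single members changed far more, since Car12 and Lpl, given above as nearly silent, belong to the glycolysis and fatty acid lists. Of 40 glycolysis and hypoxia genes 21 were lower and 3 higher (median -0.26), among them Pdk1 (78.4, 90.1 and 138 to 41.5, 31.8 and 50.8 CPM, -1.303), Pfkp (-1.29), Ndrg1 (-1.14), Ldha (-0.56) and, on chromosome 9, Pkm (-0.96). Hk2 (0.84) and Pfkfb3 (1.05) rose. With the control clone in the fit 7 were lower, against 18.3% of all genes. Pdk1, Pfkp and Ndrg1 were then not called, at log2 fold changes of -1.31, -1.296 and -1.15 that hardly differ from those of the 6 libraries. In oxidative phosphorylation 33 of 71 nuclear subunits were lower and 2 higher, with a median of only -0.14; the 33 became 7 at the fold of 1.2, 17 with the control clone in the fit, 18 without knockout replicate 1 and 21 without parental replicate 2. The 4 lowest were Sdhd (125, 138 and 147 to 62.9, 61.1 and 68.8 CPM, -1.09), Atp5l and Cox5a on chromosome 9 and Ndufb4 on chromosome 16, and on the 15 other autosomes 26 of 58 were lower (44.8%). Fatty acid genes had 24 of 49 members lower and 12 higher. Pparg, the adipogenic nuclear receptor, fell from 176, 173 and 239 to 69.8, 72.4 and 68.2 CPM (-1.48, SE 0.11), with the oxidation genes Hadh (-0.78) and Cpt1a (-0.62), while the synthesis genes Fasn (0.63), Acly (0.595) and Elovl6 (0.62) and the lipid droplet protein Plin2 (98.4, 96.8 and 84.03 to 197, 203 and 197 CPM, 1.09) rose. Cholesterol genes had 16 of 32 higher and 5 lower (median 0.32), from Srebf2 (0.23) to Idi1 (186, 204 and 187 to 358, 264 and 377 CPM, 0.79). Knockout replicate 2 was the lowest knockout library for Idi1 and Fdft1, and without it 19 members were higher, against 11 without knockout replicate 1. With the control clone in the fit 5 of 32 were higher, near the 13.1% of all genes, and at the fold of 1.2 there were 9, against 11.5%.

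Of 31 chemokines, cytokines and receptors, 13 were lower and 9 higher. Il1rn, the interleukin 1 receptor antagonist, fell from 90.9, 95.05 and 128 to 4.53, 3.597 and 4.78 CPM (-4.6002, SE 0.16), and the alarmin Il33 fell from 89.8, 94.8 and 121 to 33.5, 39.2 and 34.8 CPM (-1.51). Lif, a cytokine of the interleukin 6 family, rose from 7.48, 6.46 and 5.52 to 27.7, 22.9 and 25.9 CPM (1.97, SE 0.12) while its receptor gene Lifr, at a mean of 1.14 CPM in the parental cells, had no count left. The neutrophil chemoattractants Cxcl1 (1.86) and Cxcl5 (1.28) and the growth factors Csf2 (1.46) and Csf3 (1.95) rose from low levels. Among 22 interferon-stimulated genes 10 were lower and 1 higher, with 35 below the filter. Samd9l fell from 70.6, 77.6 and 84.9 to 18.7, 18.2 and 20.5 CPM (-2.02, SE 0.08), whereas Irf1, Irf9, Bst2 and Stat2 were not called, all within 0.06 of 0. Of 28 MHC class I genes and natural killer cell ligands 12 were lower and 6 higher, but 5 and 5 of 16 on the 15 autosomes without a marked shift. H2-K1 fell from 45.2, 44.7 and 44.8 to 25.01, 23.997 and 24.9 CPM (-0.87, SE 0.06), H2-D1 was not called (0.15), and B2m rose (0.31); the adhesion ligand Icam1, on chromosome 9, fell (-1.29), and Pvr rose (0.95). H2 genes are near copies of each other, and their counts may be divided between them.

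Proliferation genes moved little. Of 59 cell cycle and DNA replication genes 18 were higher and 12 lower, with all but Ccnb2, on chromosome 9 (-1.06), within 0.64 of 0; with the control clone in the fit 2 were higher and 3 lower. Mki67 (0.05) and Ccna2 (-0.095) were not called. Cell cycle inhibitors and p53 targets had 22 of 37 members higher and 8 lower (median 0.26), which were 10 and 4 with the control clone in the fit (all genes 13.1% and 18.3%), and 14 higher without knockout replicate 1 (20.7%). Plk2, a p53-responsive kinase, had 139.8, 148 and 143 against 51.02, 43.9 and 39.1 CPM (1.68, SE 0.09), Cdkn1a, p21, rose (0.91, 30.9 against 16.4 CPM), and Phlda3 fell (-1.32). The cells carry mutant Trp53, and Trp53 transcript rose by 0.45. In the unfolded protein and integrated stress response 14 of 44 were lower and 7 higher. These were 8 lower and 11 higher without knockout replicate 2, 8 lower without parental replicate 2, and 3 lower and 5 higher with the control clone in the fit. Herpud1 fell from 107, 119 and 144 to 42.6, 44.1 and 44.2 CPM (-1.498), as did Vldlr (-2.68) and Slc7a11 (-1.41), while Atf3 rose (0.99). The chaperone Hspa5 (-0.02) and the factors Atf4 (-0.04) and Ddit3 (-0.01) were not called.

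Among surface and membrane protein families, 15 of 22 S100 and annexin genes were lower and 1 higher (median -0.62), as were 17 of 26 tetraspanins, caveolins and cavins, with 3 higher (median -0.36). Anxa13 fell from 227, 233 and 294 to 47.8, 55.2 and 49.2 CPM (-2.31, SE 0.10) and S100a16 from 85.7, 92.9 and 129.7 to 25.3, 25.6 and 25.1 CPM (-2.02). The abundant S100a6 (-0.76, 1635 against 2772 CPM) and Anxa2, on chromosome 9 (-1.18), fell too, and Anxa5 rose (0.22). Among the tetraspanins, Tspan13 (-2.44), Tspan12 (-1.45) and Tspan15 (-1.299) fell, and Upk1b had no count left, from a parental mean of 2.6998 CPM. Cav1 (0.19) and Cav2 (0.11) were not called. Gap junction and channel genes had 14 of 27 lower, with Panx1 at 0 counts in the clone (9.72, 9.36 and 8.85 CPM in the parental cells) and Gja1, connexin 43, going from 48.8, 42.96 and 39.02 to 13.04, 11.1 and 12.9 CPM (-1.82). Of 25 heterotrimeric G protein genes 13 were lower and 2 higher (6 and 0 at the fold of 1.2), with Gnao1, as given above, at 0 counts in the clone. The Sox, Fox and GATA families (7 higher and 8 lower of 26) lay near the background. Of the 28 palmitoyltransferase and depalmitoylase genes 6 were higher and 10 lower. These were 2 and 10 with the control clone in the fit, and 2 and 5 at the fold of 1.2. Besides Zdhhc20 itself, Zdhhc2 fell from 134, 146 and 145 to 92.4, 91.7 and 93.5 CPM (-0.61, SE 0.05), Zdhhc23 rose from 0.489 to 2.73 CPM (2.49), and Zdhhc5 was not called (0.07).

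Of 58 cytosolic ribosomal protein genes 9 were higher and 13 lower, with a median of -0.02. Without knockout replicate 3, 4 were higher, and at the fold of 1.2, 0 were higher and 3 lower. On the 15 autosomes without a marked shift, 4 of 45 were higher and 8 lower. The 4 lowest, Rplp1 (679, 741 and 743 to 344, 385 and 370.1 CPM, -0.98), Rps25 (-0.79), Rpl4 (-0.61) and Rpsa (-0.31), are all on chromosome 9, where 4 of 6 tested members were lower and the median was -0.46. On chromosome 17, 4 of 5 were higher (Rps2, Rps10, Rps18 and Rps28) and none lower. In the control clone Rplp1 had 649, 691 and 709 CPM, near the parental level.

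The knockout clone was also set against the control clone in a fit of all 9 libraries. Both comparisons share the knockout libraries. The control libraries correlated at 0.9804 (1 and 2), 0.982 (1 and 3) and 0.9634 (2 and 3), which does not single out 1 of them. Leaving out control replicate 2 was chosen after seeing its values, and the other control libraries were then left out in turn too. Against the control clone, 19% of the autosomal genes were higher in the knockout clone and 23.7% lower. Without control replicate 1, 2 and 3, these shares were 14.9%, 26.2% and 21.1% higher and 20.1%, 27.9% and 24.7% lower. Drug-metabolising enzymes had 41 of 63 members lower, and 35, 47 and 35 without control replicates 1, 2 and 3. S100 and annexin genes had 15 of 22 lower (14, 16 and 14 in the same order), keratins 7 of 9 (7 in each) and junction genes 21 of 35 (21, 22 and 23). Epithelial transcription and splicing factors had 8 of 20 lower (7, 12 and 7), and glycolysis and hypoxia genes 15 of 40 (11, 32 and 10). Contractile actin genes had 8 of 22 higher (4, 11 and 6), and Hippo and YAP genes 13 of 35 (11, 23 and 12), so that these counts rested on which control library was left out. The p53 list had 6 of 37 higher and 7 lower, with 3, 6 and 10 higher in the fits with 1 control library less. Cholesterol genes had 4 of 32 higher and 6 lower. Their lower count was 15 without control replicate 2, and their higher counts were 2, 4 and 8, with medians of -0.12, -0.32 and 0.07. The difference between the 2 comparisons was not tested.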

How the data were processed

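RNA-seq libraries of the knockout clone, the parental cells and the control clone were compared as 1 table of expected counts per gene deposited by the authors. Per the submitters' processing notes, RSEM 1.3.0, STAR 2.5.2, DESeq2 1.10.1 and GRCm38 were used; the gene annotation used for counting and its strandedness are not given in the sources used here. All deposited expected counts were whole numbers and were used as they are. The knockout and parental libraries were fitted with edgeR 4.0.16 (R 4.3.3; quasi-likelihood test, TMM factors, filterByExpr with a minimum count of 10 and total of 15), and p-values were adjusted by Benjamini-Hochberg over the 12362 autosomal genes. SE and adjusted p are from this fit except those against the control clone, which are from a fit of all 9 libraries or of 8; CPM are scaled by TMM, those of the control clone in the fit of all 9. Symbols and positions are from GENCODE M21 on GRCm38, which held 54809 of 54838 identifiers. Genes were named by rule: Zdhhc20, the 8 highest and 8 lowest called protein-coding genes with at least 20 CPM in the higher group and no overlap, and up to 4 called members per list with the largest change and at least 5 CPM; other list members are named with their values. The gene lists, the rule and the tests were chosen with earlier results of these data known. Genes with 0 counts in a group were given a bound against a floor of 3 counts over the group, and genes with 1 to 3 counts a ratio with its 95% counting interval; both cover counting error only. On simulated counts for 12191 genes, the test recovered 88.9% of the genes changed 2-fold and 100% of those changed 4-fold. Alternatives were DESeq2 1.42.0, limma 3.58.1 with voom, other scalings and filters, a replicate block, a minimum fold, the control clone in the fit, and leaving out each library. Some members of the lists are not reported here by name.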

Additional observations from a re-analysis of the deposited data

Results flagged for a closer look

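Genes encoded by the mitochondrial genome were outside the autosomal comparison, and 6 of the 15 tested were higher in the knockout clone while 0 were lower (edgeR's quasi-likelihood test, median log2 fold change 0.34), against 25.9% higher among autosomal genes. The increase was largest for the ribosomal RNA mt-Rnr1, with 1204, 1077 and 989 CPM in the knockout clone against 393, 327 and 332 CPM in the parental cells (1.64), followed by mt-Rnr2 (1.11). Of the messenger RNAs, mt-Nd1 (0.50), mt-Nd2 (0.45), mt-Nd5 (0.43) and mt-Nd3 (0.37) rose. The knockout and parental libraries overlapped in mt-Nd1, mt-Nd2 and mt-Nd5, with knockout replicate 3 below parental replicate 1 in each. The control clone had 1097, 1062 and 1559 CPM of mt-Rnr1. Its libraries were above those of both groups for mt-Rnr2, mt-Nd1, mt-Nd2 and mt-Nd5, and for mt-Nd3 they were near the parental ones (367, 430.3 and 323 CPM).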

How the results depend on the processing

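The count of called genes was 3998 with all 9 libraries in the fit (1671 higher) and 3517 at a minimum fold of 1.2 (1422 higher and 2095 lower). Among genes at 5 CPM or more, those called with a log2 change of 1 or more in size numbered 699 (163 higher and 536 lower). Leaving out 1 library gave 5670 to 6354 called genes, 2593 to 3048 higher and 3045 to 3306 lower. The replicate numbers did not pair the samples: deviations of same-numbered libraries correlated at 0.0673, -0.0745 and -0.00534, and with the replicate block 6522 genes were called. Among the list counts and medians, 1760 values under the alternatives listed in the processing stayed close to the main value and 112 moved. Among the named genes, 2573 values kept their call, 19 lost it (11 genes, 8 of the values with all 9 libraries in the fit) and 0 reversed. Leaving out chromosomes 9, 14, 16 and 17, chosen after seeing the data, moved 19 of the list values. The cause of these changes was not tested. The knockout group is 1 clone, which no setting can address.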

Other observations

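On the X chromosome, 110 of 384 tested genes were higher in the knockout clone and 101 lower, near the autosomal shares of 25.9% and 27.6%. On the Y chromosome 4 of 7 tested genes were lower in the knockout clone and 0 higher. The median log2 fold change of these 7 genes was -9.645, against 0.001919 on the X chromosome. The mitochondrial genome took 2.2%, 2.12% and 1.58% of the counts in the knockout libraries, 1.62%, 1.33% and 1.2% in the parental libraries and 4.11%, 3.82% and 3.45% in the control libraries.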
